A study of Homo sapiens with 6 samples.

Results

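GTSF1 and 9 other genes of the germline piRNA pathway were followed in HEK-293T, an established line of human embryonic kidney cells, in which C17orf80 had been targeted by CRISPR/Cas9. The 10 members are GTSF1, PIWIL2, PIWIL4, TDRD1, TDRD7, TDRKH, PLD6, ASZ1, HENMT1 and MAEL, out of 62348 identifiers in the gene tables. GTSF1 was selected on its counts in these libraries, present in WT and lost under the knockout label, so its difference is described without a test. The other 9 were taken from the pathway by name, although with earlier results of these data known. There were 3 libraries labelled knockout, from cells that received a C17orf80 guide RNA, and 3 WT libraries, from cells that received a non-targeting guide RNA. The labels state puromycin selection of monoclonal cells for the knockout line, without saying how many clones its 3 libraries stand for. Guide and clone cannot be told apart in this design. Nothing in the labels says that replicates came from separate cultures, so the p-values rest on a spread among libraries that may be technical only.

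piRNAs are small RNAs that guide PIWI proteins, the germline branch of the Argonaute family, to transposon transcripts and loci. Their precursors are processed at the mitochondrial outer membrane and in nuage, a perinuclear germ granule. Mature piRNAs then act through cleavage of target RNA in the cytoplasm or through silencing of chromatin in the nucleus. The pathway works mainly in the germ line, and many roles given below are known from mice and flies.

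Gene counts ranged from 14982340 to 16278091 per library. Replicate 1 labelled knockout stood apart from its group: Pearson's r across genes (log2 CPM) was 0.932 to replicate 2 and 0.945 to replicate 3, against 0.987 between those 2 and 0.988 for each WT pair. Its TMM factor was 0.851, against 1.03 to 1.04 in the other 5 libraries. Values without it are therefore given for many of the genes where they differ in call or size. The C17orf80 transcript had 763, 699 and 698 counts in replicates 1 to 3 labelled knockout and 397, 451 and 476 counts in WT replicates 1 to 3 (log2 fold change 0.78 ± 0.17 SE, edgeR adjusted p = 0.0232). Without replicate 1 labelled knockout the log2 fold change was 0.64. The transcript was thus higher, not lower, in each library labelled knockout, and whether the protein was lost is not shown by these counts. Of 9 markers fixed for the line, 8 were present, among them KRT8, KRT18 and VIM, while the kidney-progenitor factor LHX1 was at trace level. By edgeR 0 of the 8 tested markers rose and 2 fell, where 15.1% of all tested genes passed. Those were NEFL and EYA1, with log2 fold changes of -1.48 and -1.41. Without replicate 1 labelled knockout 1 rose and 3 fell of 8 tested, where 44% of all tested genes passed. KRT8 was then higher (0.72), and PAX2, NEFL and EYA1 were lower (-0.46, -1.64 and -1.49). Here a gene is called present when every library of at least 1 group has at least 1 CPM (counts per 1e6 gene counts, TMM-scaled), and at trace level when it has counts but is not present.

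Of the 10 members, 4 were present, 5 were at trace level and 1 had no counts. GTSF1 was present in WT alone; TDRD7, TDRKH and PLD6 were present in both groups. PIWIL2, PIWIL4, ASZ1, HENMT1 and MAEL were at trace level, and TDRD1 had no counts in any library. The libraries thus held transcripts of the mitochondrial membrane step, through TDRKH and PLD6, of 1 germ granule Tudor protein and, in WT, of the PIWI cofactor. No transcript of a PIWI protein, of the piRNA methyltransferase or of Maelstrom reached 1 CPM in every library of a group. Under the knockout label PIWIL4 missed this level in replicate 2 alone. Because bulk RNA was measured, fewer expressing cells and less RNA per cell cannot be told apart.

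**Figure D1:**
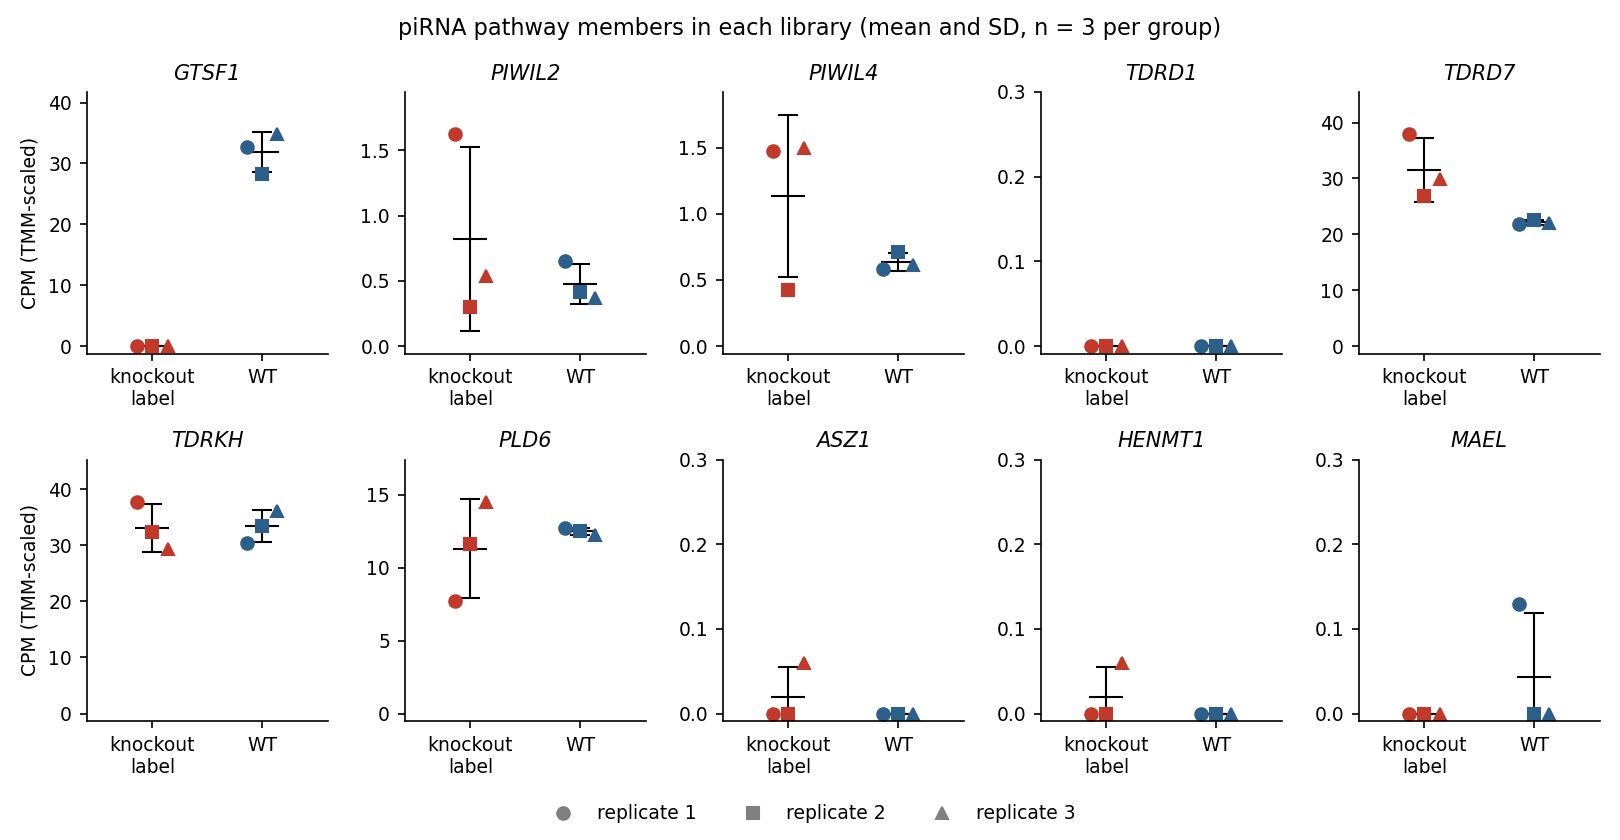
Level of each of the 10 members in CPM (TMM-scaled, linear axis, a separate scale in each panel) in the 3 libraries labelled knockout (red, left) and the 3 WT libraries (blue, right); symbols mark the replicates, and horizontal bars and whiskers the mean and SD, cut at the axis. GTSF1 lies between 28.3 and 34.8 CPM in WT and at or near 0 under the knockout label, TDRD7 is higher in each library labelled knockout, TDRKH and PLD6 overlap, and the other 6 panels reach at most 1.62 CPM.

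GTSF1 is a small protein with CHHC zinc fingers that binds PIWI proteins and, in mice and flies, is needed for piRNA-guided silencing. The gene (ENSG00000170627) spans chr12:54455957-54473602 on the minus strand of GRCh38. It had 0, 0 and 1 counts in replicates 1 to 3 labelled knockout and 503, 477 and 569 counts in WT replicates 1 to 3. Every WT library was thus high and every library labelled knockout at or next to 0, with no overlap. In CPM the means were 0.0200 ± 0.0346 under the knockout label and 31.9 ± 3.32 in WT (SD, n = 3 each). The ratio of labelled knockout to WT was 0.000672, with a 95% counting interval (exact, conditional on the total) from 1.7e-05 to 0.00375. The single count lay in replicate 3; without that library the group had 0 counts, and GTSF1 was at least 319-fold lower at a limit of 3 counts over the group. Replicate 1, which stood apart in other respects, was at 0 like replicate 2. A long noncoding gene, GPR84-AS1, overlaps the span of GTSF1 by 11074 bases in RefSeq. One of its 2 identifiers had 10 counts over the libraries labelled knockout and 7 over WT, the other 11 and 4. The sources used here do not say whether counting used strand.

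The promoter windows of GTSF1, TDRD7 and ASZ1 are shown because these genes stand for the 3 patterns among the members: lost under the knockout label, present in both groups, and next to silent in both. Each window runs from 250 bases before to 50 bases after the RefSeq start on GRCh38.p14, 5′ to 3′ on the gene's strand, with CG dinucleotides, the sites of DNA methylation, in capitals. The windows lie at chr12:54473553-54473852 (minus strand), chr9:97411846-97412145 (plus strand) and chr7:117427444-117427743 (minus strand).
GTSF1: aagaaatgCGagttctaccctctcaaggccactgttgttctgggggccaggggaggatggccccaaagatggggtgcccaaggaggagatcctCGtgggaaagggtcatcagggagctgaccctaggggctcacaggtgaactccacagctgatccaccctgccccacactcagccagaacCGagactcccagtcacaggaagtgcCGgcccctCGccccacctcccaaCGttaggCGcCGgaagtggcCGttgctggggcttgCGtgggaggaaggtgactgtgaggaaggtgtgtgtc
TDRD7: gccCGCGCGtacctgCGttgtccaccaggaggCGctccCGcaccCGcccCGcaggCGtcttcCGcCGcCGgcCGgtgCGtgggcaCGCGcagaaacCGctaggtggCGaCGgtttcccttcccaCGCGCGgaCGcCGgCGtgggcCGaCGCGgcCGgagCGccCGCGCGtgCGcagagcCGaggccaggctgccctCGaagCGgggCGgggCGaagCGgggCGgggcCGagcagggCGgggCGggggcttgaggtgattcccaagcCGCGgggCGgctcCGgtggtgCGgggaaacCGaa
ASZ1: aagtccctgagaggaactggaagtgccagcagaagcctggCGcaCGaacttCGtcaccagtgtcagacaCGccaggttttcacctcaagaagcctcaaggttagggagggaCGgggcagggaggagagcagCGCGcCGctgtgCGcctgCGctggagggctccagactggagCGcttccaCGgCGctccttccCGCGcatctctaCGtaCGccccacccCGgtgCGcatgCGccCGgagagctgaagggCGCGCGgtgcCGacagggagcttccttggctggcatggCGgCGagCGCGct
The GTSF1 window held 10 CG dinucleotides, the TDRD7 window 50 and the ASZ1 window 29, against a median of 14 over 35116 promoter windows of all genes. The table held 11 windows for 7 of the 10 members, and the 10 windows other than that of GTSF1 had 17 to 60 CG dinucleotides. By this count 43.6% of all windows had fewer than GTSF1, 75.8% fewer than ASZ1 and 98.7% fewer than TDRD7. The MAEL window with 60, of a gene at trace level, ranked above 99.9% of windows. Among the 7 members with a window, the highest count thus belonged to a gene at trace level and the lowest to GTSF1. The other MAEL window had 27, with 71.8% of all windows below it, and which start is used in these cells was not tested. The E-box letters CACGTG, searched on both strands, were in windows of TDRD1 and MAEL and in 7.26% of all windows. The letters TCCCGC, part of E2F sites, were in windows of TDRD7, ASZ1 and MAEL and in 26.9% of all windows; the motifs were searched separately, so matches could overlap. Neither was in the GTSF1 window. Methylation and factor binding were not measured.

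**Figure D2:**
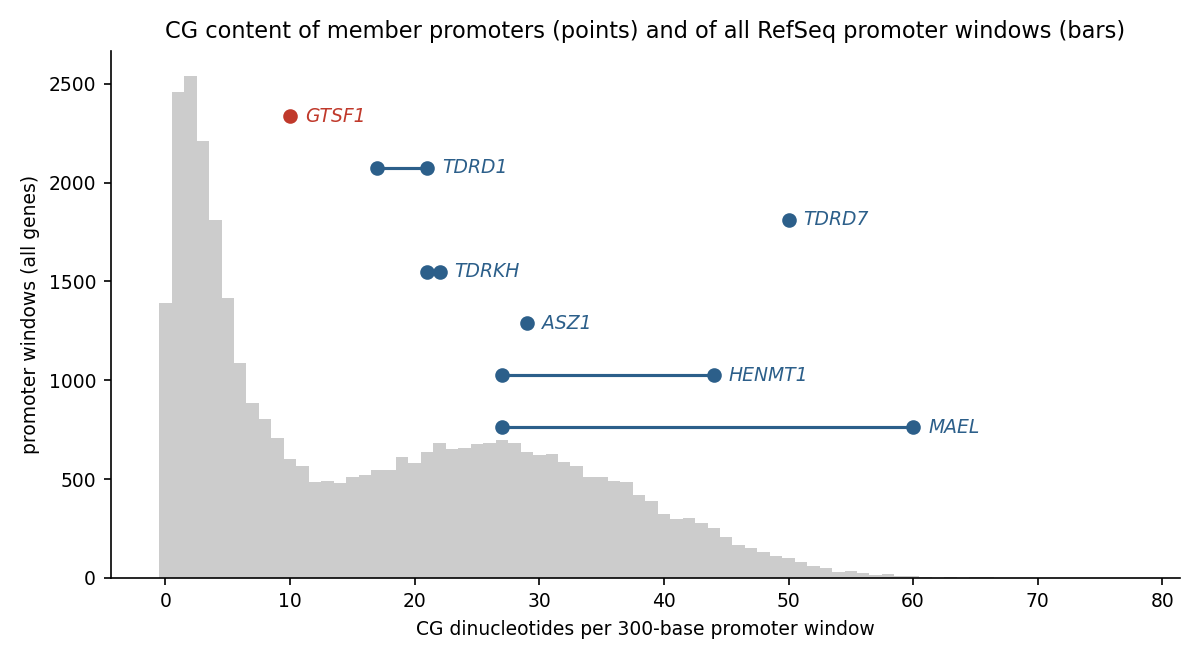
Number of CG dinucleotides in each 300-base promoter window (x axis) for all 35116 windows (grey bars, y axis: windows) and for the members that have a window (points, placed at arbitrary heights and joined within a gene; GTSF1 in red). GTSF1, at 10, has the fewest among the plotted members, and MAEL, at 60 in one of its windows, the most.

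The transcripts of the member PIWI genes, PIWIL2 and PIWIL4, were at trace level. PIWIL2, the human counterpart of the mouse cytoplasmic PIWI protein MILI, had 22, 5 and 9 counts in replicates 1 to 3 labelled knockout and 10, 7 and 6 counts in WT replicates 1 to 3. The groups overlapped, and 1 library, replicate 1 labelled knockout, stood above the rest at 1.62 CPM against 0.303 to 0.649 CPM in the other 5. PIWIL2 did not pass the filter on low counts; in a fit with no filter its log2 fold change was 0.69 ± 0.71 SE (edgeR adjusted p = 0.590). PIWIL4, the counterpart of the mouse nuclear PIWI protein MIWI2, had 20, 7 and 25 counts under the knockout label and 9, 12 and 10 counts in WT. That is 1.48, 0.424 and 1.50 CPM in replicates 1 to 3 labelled knockout and 0.584, 0.711 and 0.611 CPM in WT replicates 1 to 3. Replicates 1 and 3 labelled knockout were above every WT library and replicate 2 was below them. The log2 fold change was 0.82 ± 0.54 SE, with a 95% interval from -0.45 to 2.08 (edgeR adjusted p = 0.323). It was 0.60 without replicate 1 labelled knockout. Of the 2 other PIWI genes, PIWIL1 had no counts and PIWIL3 had 1 count in each group.

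TDRD7 and TDRD1 are Tudor proteins, which bind methylated arginines of PIWI proteins and build germ granules; TDRD7 is also known for its role in the lens. TDRD7 (ENSG00000196116) had 514, 443 and 500 counts in replicates 1 to 3 labelled knockout and 336, 382 and 360 counts in WT replicates 1 to 3. In CPM these were 37.9, 26.8 and 30.0 under the knockout label and 21.8, 22.6 and 22.0 in WT. Each library labelled knockout was above each WT library, a pattern found in 23.5% of tested genes in this direction, in 24.1% with the libraries labelled knockout below WT, and in 47.6% in either direction. The means were 31.6 ± 5.71 and 22.2 ± 0.435 CPM (SD, n = 3 each), and the log2 fold change was 0.51 ± 0.17 SE, with a 95% interval from 0.12 to 0.91. It did not pass the threshold over all 6 libraries (edgeR adjusted p = 0.0831). Without replicate 1 labelled knockout, its highest library, the log2 fold change was smaller, at 0.37 ± 0.11 SE, and passed (edgeR adjusted p = 0.00628); in that fit 44% of all tested genes passed, and 22.3% of all tested genes were higher. TDRD1, the partner of MILI in mice, had 0 counts in all 6 libraries, which allows up to 0.0642 CPM under the knockout label and 0.0617 CPM in WT (3 counts over the group).

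At the mitochondrial outer membrane, where piRNA precursors are cut and trimmed in germ cells, 2 of the 3 members were present. TDRKH, a Tudor and KH domain protein that holds PIWI proteins at mitochondria for trimming in mice, had 512, 536 and 488 counts in replicates 1 to 3 labelled knockout and 470, 566 and 592 counts in WT replicates 1 to 3. The groups overlapped, at 33.2 ± 4.29 CPM under the knockout label and 33.4 ± 2.85 CPM in WT (SD, n = 3 each). The log2 fold change was -0.011 ± 0.16 SE, and its 95% interval from -0.38 to 0.36 bounds the change that these libraries allow (edgeR adjusted p = 0.968). The span of TDRKH overlaps that of OAZ3, a testis gene of polyamine control, by 4845 bases, and OAZ3 had 41 counts under the knockout label and 49 in WT.

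PLD6, also called mitoPLD and the counterpart of the fly nuclease Zucchini, acts both in piRNA biogenesis and in mitochondrial shape. It had 105, 192 and 242 counts in replicates 1 to 3 labelled knockout and 196, 211 and 200 counts in WT replicates 1 to 3. Replicate 1 labelled knockout was the lowest library, at 7.74 CPM, replicate 3 the highest, at 14.5 CPM, and replicate 2, at 11.6 CPM, lay below the WT libraries, which kept within 12.2 to 12.7 CPM. The group means were 11.3 ± 3.40 CPM under the knockout label and 12.5 ± 0.246 CPM in WT (SD, n = 3 each). The log2 fold change was -0.14 ± 0.24 SE, with a 95% interval from -0.71 to 0.43 (edgeR adjusted p = 0.713), and it was 0.075 ± 0.15 SE without replicate 1 labelled knockout (adjusted p = 0.712). Mitochondrial genes took 11.9% of gene counts in that library, against 4.53% to 5.00% in the other 5; the part of this in the PLD6 value was not tested.

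ASZ1, also called GASZ, an ankyrin repeat protein of the same membrane in mouse germ cells, had 1 count in all, in replicate 3 labelled knockout. HENMT1, the methyltransferase that protects the tail end of piRNAs, likewise had 1 count in all, in the same library. MAEL, or Maelstrom, a nuage protein needed for transposon silencing, had no counts under the knockout label and 2 counts in WT, both in replicate 1. With so few counts no difference was detectable at this depth.

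Of the 9 members other than GTSF1, 4 could be tested and 5 did not pass the filter on low counts. By edgeR 0 rose and 0 fell over the 6 libraries, where 15.1% of 17452 tested genes passed (8.64% higher and 6.5% lower). Before adjustment TDRD7 alone had a p under 0.05, so 1 was higher and 0 lower. The share of all tested genes at this unadjusted threshold was not counted, so nothing is read from it. DESeq2 called 1 member higher after adjustment, again TDRD7 (adjusted p = 0.0493), where it called 24.1% of all tested genes, and limma-voom called 0, where it called 15.1%. The median log2 fold change of the 4 was 0.25, against 0.0055 over all tested genes. Among the present members, GTSF1 was at 0 or 1 count in each library labelled knockout, while TDRD7, TDRKH and PLD6 kept at least 7.74 CPM in every library.

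**Figure D3:**
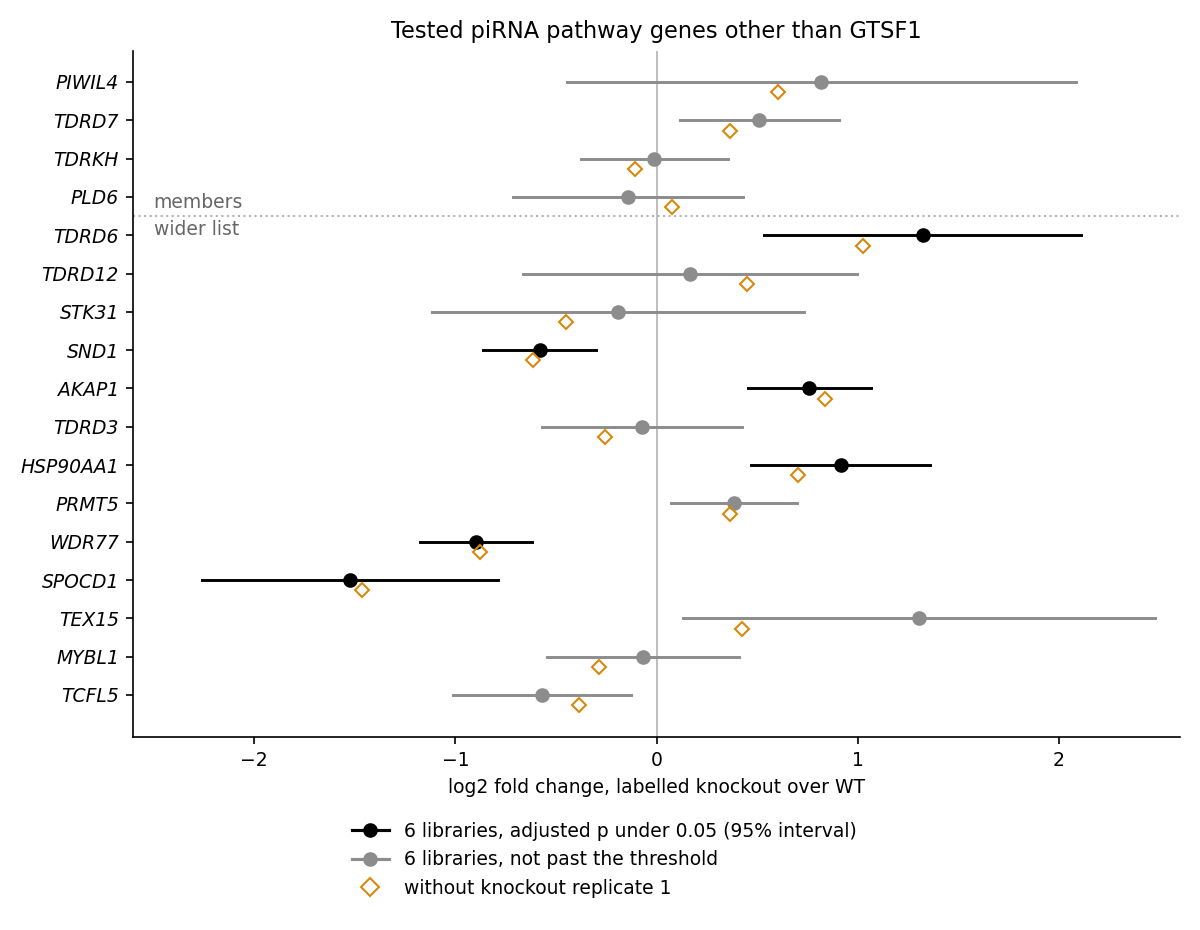
Log2 fold change, labelled knockout over WT, of the 4 tested members other than GTSF1 (above the dotted line) and the 13 tested genes of the wider pathway list (below it), with 95% intervals of single genes (circles and bars; black where the adjusted p was under 0.05) and the estimate without replicate 1 labelled knockout (open diamonds). The intervals of PIWIL4, TDRKH and PLD6 cross 0, and that of TDRD7 lies above 0 although it missed the adjusted threshold; 6 genes of the wider list are black, TDRD6, AKAP1 and HSP90AA1 to the right and SND1, WDR77 and SPOCD1 to the left.

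A wider list of 29 genes of piRNA biology, which includes several proteins with broad functions outside the germ line, was read in the same way. In it 13 genes were present, 11 were at trace level and 5 had no counts. Of the 39 genes of both lists together, 17 were present, 16 at trace level and 6 without counts. By role, 7 of 12 Tudor proteins, 2 of 2 arginine methylation factors, 2 of 3 transcription factors, 2 of 5 nuclear silencing factors and 1 of 6 helicases, nucleases and chaperones were present, against 0 of 4 PIWI proteins. The germ cell helicase DDX4 (Vasa), the trimming nuclease PNLDC1, the precursor helicase MOV10L1, EXD1, FKBP6, TDRD5, TDRD9, BTBD18, C19orf84 and DNMT3L were at trace level, as was PIWIL3. PNLDC1 had 38 counts over the libraries labelled knockout and 6 over WT, and MOV10L1 had 15 and 57; neither passed the filter on low counts over all 6 libraries. Without replicate 1 labelled knockout both were called, PNLDC1 higher and MOV10L1 lower. Each could be tested there only through the group where it is high, so these calls are counted but support nothing. The groups of MOV10L1 also overlapped, with WT replicate 1 at 0.389 CPM and replicate 1 labelled knockout at 0.443 CPM. GTSF1L, a paralog of GTSF1, had no counts in any library, nor had PIWIL1, TDRD15, RNF17 and MORC1.

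All 13 present genes of the wider list were tested; 3 rose, 3 fell and 7 did not pass edgeR, a share of 46.2% against 15.1% of all tested genes. The list was chosen with earlier results of these data known, and nothing particular to it is read from this share. The median log2 fold change was -0.068, against 0.0055 over all tested genes. Without replicate 1 labelled knockout it was -0.26 over 15 tested genes of the list, against 0.0062 over all tested genes.

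WDR77 (MEP50) and PRMT5 form the complex that methylates arginines of PIWI and many other proteins. WDR77 was at 90.0, 89.8 and 94.8 CPM in replicates 1 to 3 labelled knockout and at 174, 168 and 170 CPM in WT replicates 1 to 3. Its groups were far apart beside their spread, and it fell, with a log2 fold change of -0.90 ± 0.12 SE (edgeR adjusted p = 0.00445). PRMT5 was at 46.3 ± 3.23 CPM under the knockout label and 35.5 ± 1.59 CPM in WT (SD, n = 3 each) and did not pass (log2 fold change 0.38 ± 0.13 SE, edgeR adjusted p = 0.0929), though its groups did not overlap; without replicate 1 labelled knockout it passed (0.37, adjusted p = 0.00228). The estimates for the 2 partners of the complex thus had opposite signs, and a difference between them was not tested.

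AKAP1, an anchor of protein kinase A on the mitochondrial outer membrane that carries a Tudor domain, was at 161, 192 and 184 CPM in replicates 1 to 3 labelled knockout and at 108, 107 and 103 CPM in WT replicates 1 to 3. It rose, with no overlap (log2 fold change 0.76 ± 0.13 SE, edgeR adjusted p = 0.0117). SND1, a Tudor domain nuclease and transcriptional coactivator found in most cells, was at 233, 217 and 209 CPM under the knockout label and at 332, 324 and 331 CPM in WT. It fell (log2 fold change -0.58 ± 0.12 SE, edgeR adjusted p = 0.0210). TDRD6, a Tudor protein of the chromatoid body of mouse spermatids, was at 7.15, 3.88 and 4.44 CPM under the knockout label and at 1.69, 1.84 and 2.63 CPM in WT. It rose, at a low level in both groups (log2 fold change 1.32 ± 0.34 SE, edgeR adjusted p = 0.0402). The log2 fold change of TDRD6 was 1.02 without replicate 1 labelled knockout.

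HSP90AA1, a cytosolic chaperone that helps load small RNAs into Argonaute proteins, was at 6374, 4101 and 4454 CPM in replicates 1 to 3 labelled knockout and at 2677, 2569 and 2678 CPM in WT replicates 1 to 3. It rose, with the highest value in the library that stood apart (log2 fold change 0.91 ± 0.19 SE, edgeR adjusted p = 0.0215; 0.70 without that library). SPOCD1, a nuclear factor that links PIWI proteins to DNA methylation in mouse germ cells, was at 1.48, 2.18 and 1.14 CPM under the knockout label and at 5.32, 4.33 and 4.22 CPM in WT. It fell (log2 fold change -1.525 ± 0.31 SE, edgeR adjusted p = 0.0205).

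**Figure D4:**
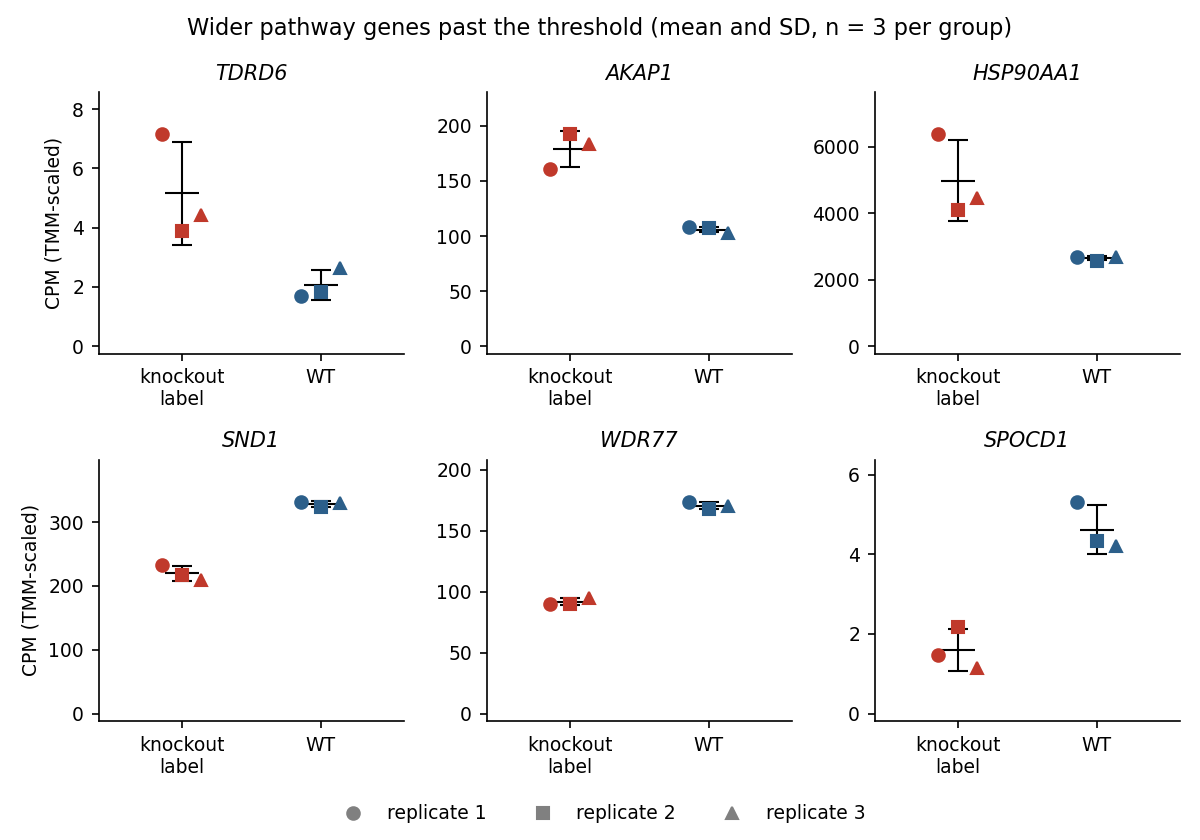
Level in CPM (TMM-scaled, linear axis from 0, a separate scale in each panel) of the 6 wider pathway genes that passed edgeR, in the 3 libraries labelled knockout (red, left) and the 3 WT libraries (blue, right), with mean and SD; symbols mark the replicates. In the upper row TDRD6, AKAP1 and HSP90AA1 are higher in each library labelled knockout, and in the lower row SND1, WDR77 and SPOCD1 are lower in each.

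The other 7 present genes did not pass. TEX15, required for piRNA-directed DNA methylation in mice, was at 170, 44.2 and 51.6 CPM in replicates 1 to 3 labelled knockout and at 33.8, 40.5 and 33.3 CPM in WT replicates 1 to 3. Replicate 1 labelled knockout was more than 3 times any other library, and the log2 fold change was 1.305 ± 0.50 SE over all libraries (edgeR adjusted p = 0.118) and 0.43 ± 0.10 SE without it (adjusted p = 0.00132). The transcription factor gene MYBL1 (A-MYB), a driver of piRNA genes in mouse meiosis, was at 35.6 ± 9.33 CPM under the knockout label and 37.3 ± 2.29 CPM in WT (SD, n = 3 each; log2 fold change -0.068 ± 0.20 SE). TCFL5, another testis transcription factor, was at 53.4 ± 11.8 and 79.2 ± 2.89 CPM (SD, n = 3 each; -0.57 ± 0.19 SE, edgeR adjusted p = 0.0843). Without replicate 1 labelled knockout MYBL1 and TCFL5 both passed as lower, with log2 fold changes of -0.29 and -0.39 (edgeR adjusted p = 0.0262 and 0.000232). TDRD12, STK31 and TDRD3, all Tudor proteins, had log2 fold changes of 0.17, -0.19 and -0.073 with edgeR adjusted p of 0.766, 0.760 and 0.832. Their log2 fold changes were 0.45, -0.45 and -0.26 without replicate 1 labelled knockout, and none of them passed there.

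Calls in the wider list, like those over all genes, moved with single libraries. Without replicate 1 labelled knockout 6 genes rose and 6 fell of 15 tested, where 44% of all genes passed. These counts include PNLDC1 and MOV10L1, each tested only through the group where it is high, so they are not compared with that share. Without replicate 2 labelled knockout 3 rose and 3 fell, where 14.9% of all genes passed. WDR77 alone passed without replicate 3 labelled knockout, where 6.48% of all genes passed, and without WT replicate 1, WT replicate 2 or WT replicate 3, where 3.63%, 3.69% and 3.54% passed. WDR77 passed under each of 14 alternatives, with edgeR, DESeq2 or limma-voom adjusted p up to 0.0436, whereas AKAP1, HSP90AA1, SND1, SPOCD1 and TDRD6 passed under 9 of 14, with a constant sign. With the replicate number as a block WDR77 was likewise the only one called, where 5.55% of all genes passed.

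Germ cell markers were read beside the pathway genes. Of 11 markers 1 was present, 5 were at trace level and 5, SYCP1, NANOS3, DPPA3, TEX101 and STRA8, had no counts in any library. The defining germ cell genes DAZL and DDX4 had 2 and 6 counts over the libraries labelled knockout and 0 and 2 over WT. DMRT1, a testis transcription factor, had 1 and 15 counts, and POU5F1, the pluripotency factor OCT4, had 50 in each group. SYCP3, of the meiotic chromosome axis, had 83 and 31 counts and did not pass. The summed level of the list ranged from 3.63 to 9.44 CPM in the libraries labelled knockout and from 2.01 to 2.61 CPM in WT. The highest sum lay in replicate 1 labelled knockout, where BOLL was at 5.75 CPM and SYCP3 at 2.58 CPM. The sum thus rests mostly on these genes there and does not show a rise of the list as a whole. The present marker was BOLL, an RNA-binding protein of meiosis, with 78, 18 and 28 counts in replicates 1 to 3 labelled knockout and 1, 8 and 3 counts in WT replicates 1 to 3. It was higher in each library labelled knockout, most of all in replicate 1, at 5.75 CPM, against 1.09 and 1.68 CPM in replicates 2 and 3. BOLL was present through the knockout label alone, the group where it is high, so no test of it is given. The part of these markers in the pathway values was not tested.

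The surroundings of GTSF1 on chromosome 12 were examined for changes in its neighbours. Within 500 kb on either side lay 43 annotated identifiers, of which 19 were present and tested, and 1 rose and 2 fell by edgeR, or 15.8% against 15.1% of all tested genes. The nearest neighbour at lower coordinates that does not overlap GTSF1 was ITGA5, the integrin alpha-5 subunit that binds fibronectin, 36691 bases away. ITGA5 was at 53.7 ± 11.0 CPM under the knockout label and 96.3 ± 2.83 CPM in WT (SD, n = 3 each) and fell (log2 fold change -0.84 ± 0.18 SE, edgeR adjusted p = 0.0230; -0.68 without replicate 1 labelled knockout). The nearest neighbour at higher coordinates was NCKAP1L, a blood-cell actin regulator 24150 bases away, with 38 counts over the libraries labelled knockout and 7 over WT, too few to test. HOXC10, a body-axis gene of the HOXC cluster at the far edge of the window, rose (0.94 ± 0.18 SE, edgeR adjusted p = 0.0153; 0.99 without that library). The third called gene was HOXC12 of the same cluster, at 0, 0.121 and 0.240 CPM in replicates 1 to 3 labelled knockout and 1.43, 1.72 and 1.34 CPM in WT replicates 1 to 3. HOXC12 was present in WT alone and could be tested only through that group, so its call is counted but supports nothing. None of the 19 tested neighbours was at 0 counts under the knockout label; the nearest to it, HOXC12, had 6 counts there and 73 in WT. The 3 calls became 0 without any 1 WT library, where 3.54% to 3.69% of all genes passed. They became 1 without replicate 3 labelled knockout, where 6.48% passed, and 4 without replicate 2 labelled knockout, where 14.9% passed. Without replicate 1 labelled knockout 5 were higher and 8 lower of 21 tested, where 44% of all genes passed.

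**Figure D5:**
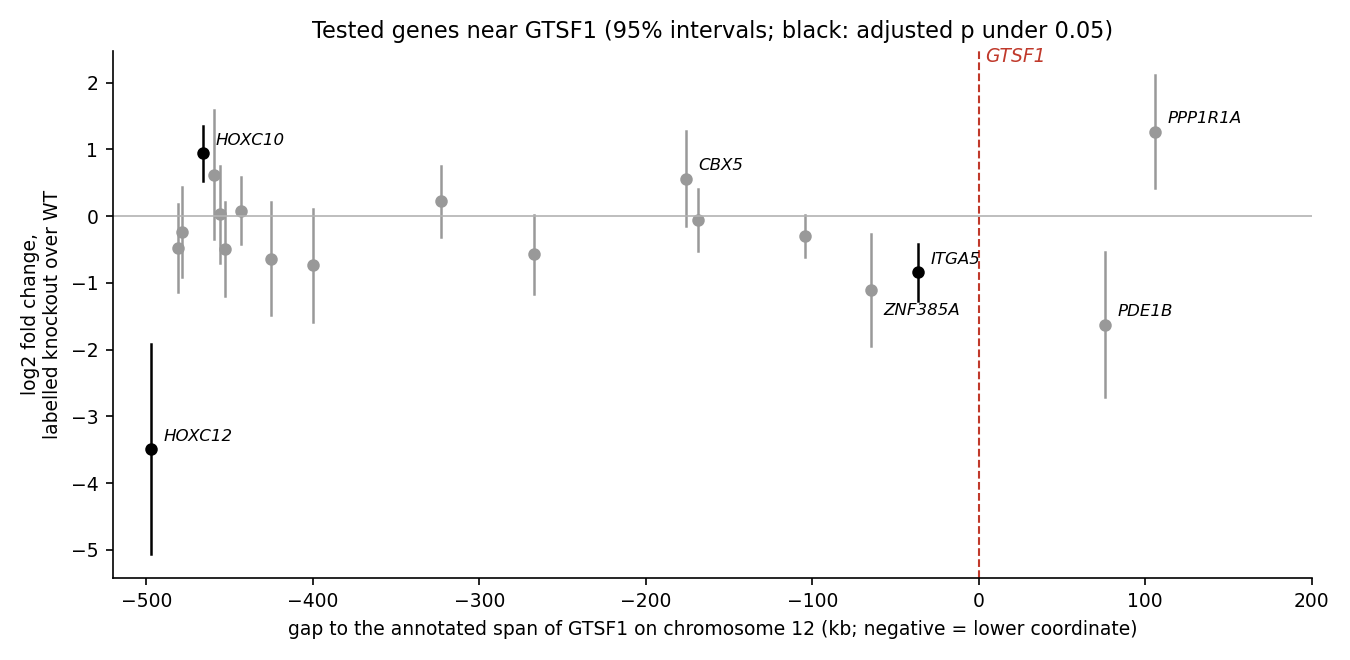
Log2 fold change, labelled knockout over WT, with 95% intervals of single genes, of the 19 tested genes within 500 kb of GTSF1, against the gap in kb between each gene's annotated span and that of GTSF1 (dashed line; negative values are lower coordinates). HOXC12 and ITGA5 (black, below 0) and HOXC10 (black, above 0) passed the adjusted threshold, and the other points lie on both sides of 0.

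The genes whose profile over the 6 libraries lay closest to that of GTSF1, by Euclidean distance of log2 CPM among 13082 tested protein-coding genes, were SFRP1 at 0.758, GSPT2 at 0.879, ZC3HAV1L at 1.42, ADM2 at 1.82 and CSAG3 at 1.86. SFRP1, a secreted WNT antagonist, had 0 counts under the knockout label and 1304 in WT, and GSPT2, a translation termination factor gene, 0 and 1191. ADM2, a peptide hormone of the calcitonin family, had 2 and 773 counts. Of 9883 genes with at least 10 CPM in each WT library, 9 had at most 3 counts over the libraries labelled knockout, GTSF1 among them. In the opposite direction 10 of 9254 genes with at least 10 CPM in each library labelled knockout had at most 3 counts over WT. Both limits were chosen after the counts of GTSF1 were seen. None of the 5 closest genes lies on chromosome 12.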

How the data were processed

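Gene counts of 6 poly(A)-selected RNA libraries were used. As deposited by the authors, each table gives raw whole-number counts by gene, and the submitters' processing notes name HISAT2 2.2.1, HTSeq 0.12.4 and GRCh38, without counting options or annotation release. Reads in no feature (8.75% to 15.9% of counted reads) or in more than one (9.74% to 12.5%) entered neither library sizes nor tests. Of 17452 tested genes, 16933 matched a symbol and 15213 a RefSeq entry of GRCh38.p14, from which coordinates and promoters were taken. The test was that of edgeR 4.0.16 under R 4.3.3 (TMM scaling, filterByExpr defaults, quasi-likelihood F test, group as the only term, Benjamini-Hochberg adjustment over all tested genes at 0.05). CPM values are counts per 1e6 gene counts, scaled by TMM; log2 CPM used a prior count of 2. Intervals of fold changes are 95% intervals of single genes, not adjusted. The script was tested on simulated data. Alternatives were other scalings and filters, DESeq2 1.42.0, limma-voom (limma 3.58.1), the replicate number as a block, and leaving out single libraries. Genes named are the 10 members, the wider pathway genes that were present, the called genes near GTSF1 with its nearest neighbours, C17orf80, and the 5 genes closest to GTSF1 in level. Pathway genes at trace level or without counts, overlapping genes, and examples from the marker and Argonaute lists are named beyond that rule, chosen after their values were seen. Members and lists were chosen with earlier results of these data known, so no p over a list is given. A planned search of GTSF1 protein sequence was not run. No transcript lengths were used, so CPM values are not adjusted for length. The 1 CPM minimum, the summed marker level and the distance to GTSF1 compare genes without that adjustment. Counting intervals and limits cover counting error only. Mitochondrial coverage files were not used.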

Additional observations from a re-analysis of the deposited data

How the results depend on the processing

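Over all genes, 2641 passed edgeR; DESeq2 called 4206, the replicate block 969, and leaving out each library in turn 644 to 7975, so the counts of calls rest on single libraries. The count of called members other than GTSF1 was 0, became 1 with DESeq2, and was 0 to 1 with a library left out. Of the wider list 6 passed, against 1 with the replicate block and 1 to 12 with a library left out. The 12 include PNLDC1 and MOV10L1, each tested only through the group where it is high. Near GTSF1 3 passed, against 1 of 7 tested within 250 kb. With a library left out 0 to 13 passed there, where 3.54% to 44% of all genes passed. Members present numbered 4 to 5 and the GTSF1 ratio was 0 to 0.00104 with a library left out. The fifth member was the PIWI gene PIWIL4, which counted as present without replicate 2 labelled knockout. It also counted as present at a minimum of 0.5 CPM, so the absence of PIWI genes from those present rests on these choices. The log2 fold change of TDRKH, -0.011, turned to 0.000809 with RLE size factors, 7.76e-05 with DESeq2 and 0.00534 with a minimum of 1 CPM, and ranged from -0.107 to 0.0698 with a library left out. That of PLD6 turned to 0.0754 without replicate 1 labelled knockout, with a lowest value of -0.364. The cause was not tested. PIWIL4 was not tested under the 1 CPM minimum.

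No pairing by replicate number was seen: deviations of same-numbered libraries from their group means correlated at -0.0585, -0.0289 and 0.00216. With few libraries and replicate 1 labelled knockout apart from its group, this check cannot exclude pairing. The block changed no call among the members. With 3 libraries a group, changes as small as those of TDRKH and PLD6 could not be told from 0, and genes at a few counts could not be compared.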

Other observations

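The 4 Argonaute genes, which carry out microRNA silencing outside the germ line, were all present. AGO2, the slicing member, was at 255.7 ± 87.8 CPM in the libraries labelled knockout and 190.7 ± 13.9 CPM in WT (SD, n = 3 each). Replicates 1 to 3 labelled knockout were at 357, 200 and 210 CPM, and WT replicates 1 to 3 at 184, 207 and 182 CPM. The log2 fold change of AGO2 was 0.42, and 0.11 without replicate 1 labelled knockout. AGO4 was at 47.5 ± 2.58 CPM under the knockout label and 62.3 ± 3.64 CPM in WT (SD, n = 3 each). By edgeR 0 of the 4 passed, against 15.1% of all tested genes. AGO4 alone was lower at an unadjusted p under 0.05 (log2 fold change -0.39 ± 0.13 SE, edgeR adjusted p = 0.0850). The share of all tested genes at that unadjusted threshold was not counted. Without replicate 1 labelled knockout 3 of the 4, AGO1, AGO3 and AGO4, were lower, where 21.7% of all tested genes were lower. Their log2 fold changes were -0.24, -0.25 and -0.42 there, while those of AGO1 and AGO3 were 0.016 and 0.12 over all 6 libraries.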
